A study of Mus musculus with 90 samples.

Results

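Transcripts of 10 genes that carry the insulin signal in the liver, from the receptor to the FoxO transcription factors, were followed in whole mouse liver by bulk RNA-seq. The genes were taken by symbol from the 27654 gene rows of the deposited count tables, and each had a single row in all 90 libraries. They are *Insr* (chr8:3122061-3279617) and *Igf1r* (chr7:67952827-68233668), which encode the insulin and IGF-1 receptors, *Irs1* (chr1:82233101-82291416) and *Irs2* (chr8:10984681-11008458) for the adaptors, *Pik3r1* (chr13:101680563-101768217) for a regulatory subunit of PI3-kinase, *Akt1* (chr12:112653821-112674884) and *Akt2* (chr7:27591552-27640826) for the kinases, and *Foxo1* (chr3:52268336-52353221), *Foxo3* (chr10:42181841-42276755) and *Foxo4* (chrX:101254528-101260873) for the transcription factors. Positions are those of the whole protein-coding gene, exons and introns, in mouse build GRCm38. All 10 genes passed the filter on low counts in every comparison.

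Insulin binds its receptor, a tyrosine kinase, which phosphorylates the IRS adaptors. These recruit PI3-kinase through its regulatory subunits, and the lipid it makes brings AKT to the membrane, where AKT becomes active and phosphorylates the FoxO factors, so that they leave the nucleus. During fasting the FoxO factors stay in the nucleus and drive genes of gluconeogenesis and autophagy, and *Irs2* and *Insr* are themselves known FoxO target genes. These steps run largely on phosphorylation, which RNA-seq does not measure, so the values below are transcript levels only.

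The study asked how caloric restriction and the glucocorticoid receptor (GR, gene *Nr3c1*) shape liver transcripts around the day. Male mice, 12 weeks old at the start, were either brought gradually to 40% less food, offered at lights off (ZT12, with ZT0 at lights on), or were fed ad libitum and then only at night in the final week (control diet). The diet experiment held 3 WT livers per diet at ZT12, all C57BL/6J, and its control libraries are titled AL although their treatment label reads NR. The corticosterone experiment held 3 livers of WT mice injected daily with corticosterone at 5 mg/kg for 7 days, shortly before lights off and under night-restricted feeding, and 3 livers of vehicle-injected WT mice on the same feeding, all taken at ZT12. The time series held livers of GRLKO mice, which carry GRfl/fl and Alb-Cre, and of GRfl/fl mice without Cre, here called WT, at 6 time points 4 h apart, with 3 livers per group on caloric restriction and 3 or 4 on control diet. Alb-Cre is driven by the albumin promoter and deletes in hepatocytes, while whole liver was sequenced, so that other liver cells keep the receptor. Values are CPM, a gene's counts scaled to a common library size after TMM normalization, set separately in each experiment and, in the time series, for each diet, and a gene was called at a Benjamini-Hochberg adjusted p under 0.05 over all genes tested.

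Libraries held 36442195 to 39492146 counts in the diet experiment and 13739631 to 16077943 in the corticosterone experiment, and in the time series 14235473 to 20788575 (caloric restriction) or 10057544 to 17089004 (control diet). Group means of *Nr3c1* lay between 18.8 and 31.3 CPM in GRLKO and between 75.4 and 102 CPM in WT livers of the time series, without overlap of libraries at any time point, which fits the genotype labels. The 7 hepatocyte markers summed to 72270 CPM or more in every library. Transcripts of the exocrine pancreas summed to 416 CPM in replicate 3 of the WT livers on caloric restriction at ZT12 and to 187 CPM in replicate 2 of the WT livers on control diet at ZT16, against a median of 0.139 CPM over all libraries, so calls that rest on these libraries are given with and without them. Adipocyte markers reached 2.54 to 35.2 CPM in GRLKO livers on control diet at ZT12 and 0 to 0.282 CPM in their WT controls. The 2 diets of the time series have separate series of library numbers, from which separate batches are inferred. Effects of diet and batch cannot be told apart there. Nothing in the labels says more of how the livers of a group were obtained than that each is a separate sample, and p-values measure the spread between these samples.

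Promoter sequence was at hand for 8 of the 10 genes, in 13 windows. The windows of *Irs1*, *Irs2*, *Foxo1* and *Foxo3* are shown because most of the results below turn on these 4 genes. Each is the 250 bases before a RefSeq start site of the gene in build GRCm38.p6, read 5′ to 3′ on the strand of the gene, and lies at chr1:82291440-82291689 (minus strand), chr8:11008930-11009179 (minus), chr3:52268087-52268336 (plus) and chr10:42276696-42276945 (minus). Capitals mark matches, on either strand, to the FoxO element GTAAACA, the insulin response element CAAAACA, the glucocorticoid receptor half-site AGAACA, the cAMP response element TGACGTCA and its half-site TGACG, the E-box CACGTG and the GC box GGGCGG.
Irs1: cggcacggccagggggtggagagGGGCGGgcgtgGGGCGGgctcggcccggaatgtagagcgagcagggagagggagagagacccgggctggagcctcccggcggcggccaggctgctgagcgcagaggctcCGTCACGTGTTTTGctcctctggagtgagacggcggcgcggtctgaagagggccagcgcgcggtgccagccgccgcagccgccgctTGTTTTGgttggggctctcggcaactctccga
Irs2: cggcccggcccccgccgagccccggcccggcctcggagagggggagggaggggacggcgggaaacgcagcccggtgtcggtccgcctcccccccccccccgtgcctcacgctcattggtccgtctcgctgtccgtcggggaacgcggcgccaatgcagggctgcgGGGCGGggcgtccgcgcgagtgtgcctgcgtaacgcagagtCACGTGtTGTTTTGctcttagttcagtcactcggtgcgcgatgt
Foxo1: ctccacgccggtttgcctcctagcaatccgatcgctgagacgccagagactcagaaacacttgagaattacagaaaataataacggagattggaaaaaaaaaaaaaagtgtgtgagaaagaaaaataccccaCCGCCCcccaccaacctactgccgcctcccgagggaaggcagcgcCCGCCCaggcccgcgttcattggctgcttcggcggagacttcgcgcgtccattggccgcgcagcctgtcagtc
Foxo3: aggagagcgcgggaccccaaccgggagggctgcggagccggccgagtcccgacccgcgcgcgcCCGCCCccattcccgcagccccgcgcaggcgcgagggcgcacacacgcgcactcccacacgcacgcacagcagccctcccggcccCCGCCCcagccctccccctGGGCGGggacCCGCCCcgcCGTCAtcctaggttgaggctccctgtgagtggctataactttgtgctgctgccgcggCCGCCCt

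*Irs1* and *Irs2* both held the insulin response element in reverse, beginning at -111 and -32 in *Irs1* and at -37 in *Irs2*, counted from the start site. In each the E-box stood just before one of these elements, and in *Irs1* the E-box at -115 overlaps both the cAMP half-site in reverse at -118 and the insulin response element at -111. The windows of *Foxo1* and *Foxo3* held GC boxes, 2 and 5 respectively, and that of *Foxo3* also the cAMP half-site in reverse at -64. None of these 4 windows held the FoxO element, the glucocorticoid receptor half-site or the full cAMP response element. Among 32851 windows of the same length over all genes, 5.56% held the insulin response element, 6.02% the E-box, 17.8% the half-site of the cAMP response element, 32.7% the GC box, 3.17% the FoxO element, 16.1% the receptor half-site and 1.55% the full cAMP response element. A match is a run of letters and not a bound site, and a window without one says nothing of the factor.

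At ZT12, the end of the daily fast, 7 of the 10 transcripts rose in WT livers on caloric restriction and 1 fell, where 47.1% of all genes tested were called in this comparison. In this experiment the adaptors moved furthest, *Irs2* by 5.52 times and *Irs1* by 3.94 times. All 3 FoxO transcripts and both receptors rose as well, *Pik3r1* fell, and *Akt1* and *Akt2* were not called. In whole liver, fewer cells of a type and less RNA per cell cannot be told apart.

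*Irs2*, the adaptor that falls in the liver after meals, read 82.4, 103 and 178 CPM in the 3 livers on caloric restriction and 22.96, 29.2 and 13.5 CPM on control diet. The log2 fold change was 2.46 ± 0.37 (SE, adjusted p = 0.0019). *Irs1* read 35.4, 27.6 and 42.8 CPM against 8.19, 9.35 and 9.22 CPM, a change of 1.98 ± 0.16 (adjusted p = 0.000255). For both adaptors every restricted liver lay above every control liver, and the controls of *Irs2* were spread wider in proportion than those of *Irs1*. The 3′ part of *Irs1* shares 2822 exon bases with *Gm9747* on the opposite strand, and the labels name a kit that does not mark strand while the methods also cite a stranded one, so reads from these bases may not be told apart; *Gm9747* itself was listed at a median of 0 and at most 19.97 CPM. *Irs2* shares 162 exon bases with *9530052E02Rik* and *Foxo1* 674 with *Gm20402*, neither of which has a row in the tables.

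The insulin receptor transcript *Insr* moved less, from 178, 174 and 173 CPM on control diet to 221, 222 and 229 CPM on caloric restriction (log2 fold change 0.35 ± 0.06, adjusted p = 0.00366). *Igf1r*, the receptor for IGF-1, is known to be scarce in hepatocytes and read 5.06, 5.82 and 5.73 CPM against 2.35, 3.19 and 2.88 CPM. Its change was 0.98 ± 0.16 (adjusted p = 0.00251), larger than that of *Insr*, and neither receptor's groups overlapped.

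*Foxo1*, the FoxO factor best known for gluconeogenesis in hepatocytes, read 114, 107 and 114 CPM on caloric restriction and 66.3, 66.5 and 72.4 CPM on control diet (log2 fold change 0.71 ± 0.07, adjusted p = 0.000422). *Foxo3*, which also drives autophagy genes, read 100.1, 87.2 and 95.01 CPM against 60.1, 66.8 and 68.4 CPM (0.53 ± 0.08, adjusted p = 0.00216). *Foxo4*, another factor of the family, read 36.5, 36.1 and 36.7 CPM against 30.2, 26.5 and 30.3 CPM (0.32 ± 0.07, adjusted p = 0.0104). In this experiment the FoxO changes were smaller than those of the adaptors, and the groups of each FoxO gene stood apart.

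*Pik3r1*, whose product holds the catalytic subunit of PI3-kinase until an adaptor binds, was the member that fell, from 110.3, 130.5 and 141 CPM to 74.98, 87.9 and 72.1 CPM (log2 fold change -0.70 ± 0.11, adjusted p = 0.00274). *Akt1*, the widely expressed AKT kinase, had a difference of 0.06 (95% interval -0.09 to 0.21, not adjusted for multiple tests, here and below), and *Akt2*, the form that carries most insulin signals in liver, one of -0.06 (-0.23 to 0.10). Both intervals span 0.

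All 8 calls held when any 1 of the 6 libraries was left out. With the ZT12 livers of the time series in place of this experiment, where each diet is taken to be its own batch, 3 calls were lost: *Foxo3* at a log2 difference of 0.38 (adjusted p = 0.068), *Foxo4* at 0.03 (0.798) and *Pik3r1* at -0.27 (0.229). *Akt1*, not called above, was lower there at -0.32 (adjusted p = 0.0222), the opposite direction, and *Akt2* was lower at -0.23 (0.0235). The other 5 were called there with log2 changes of 1.70 for *Irs2*, 1.12 for *Irs1*, 1.13 for *Foxo1*, 0.82 for *Igf1r* and 0.61 for *Insr*, so that *Foxo1* changed no less than *Irs1* there. Endothelial markers also differed, summing to 194 to 222 CPM on caloric restriction and 116 to 153 CPM on control diet with 4 of 6 called higher, and hepatocyte markers to 162267 to 164047 CPM against 92199 to 98044 CPM with 3 of 7 called higher. Of 4 cholangiocyte markers tested 2 were called higher, and of 6 stellate cell markers 2 were called higher and 2 lower. Their part in the member changes was not tested.

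Corticosterone given to WT mice on control feeding called 3 of the 10 members, 2 higher and 1 lower, where 8.11% of all genes tested were called. *Foxo1* and *Foxo3* rose and *Irs1* fell. *Foxo1* read 66.4, 80.6 and 62.96 CPM in the treated livers and 31.1, 29.5 and 25.4 CPM in the vehicle livers (log2 fold change 1.29 ± 0.13, adjusted p = 0.00303). Every treated liver lay above every vehicle liver, and the call held without any 1 of the 6 libraries.

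*Foxo3* read 92.8, 128 and 81.8 CPM against 65.1, 46.9 and 46.00 CPM, a change of 0.94 ± 0.21 (adjusted p = 0.0374). *Irs1* went from 27.3, 26.2 and 21.4 CPM to 14.9, 14.6 and 11.4 CPM (-0.88 ± 0.15, adjusted p = 0.0176). The direction of *Irs1* was thus opposite to that under caloric restriction in the separate diet experiment, where it rose. With 1 library left out the change lay between 0.72 and 1.12 for *Foxo3* and between -0.97 and -0.76 for *Irs1*, while the adjusted p crossed the threshold for both. The call of *Foxo3* held only without vehicle replicate 1 or treated replicate 2, and was lost without vehicle replicate 2 (adjusted p = 0.142), vehicle replicate 3 (0.12), treated replicate 1 (0.078) or treated replicate 3 (0.0506), and with the replicate number as a block (0.0692). That of *Irs1* was lost without vehicle replicate 1 (0.064), vehicle replicate 2 (0.0807) or treated replicate 3 (0.0507).

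The other 7 members were not called. *Insr* read 130.4, 167 and 130.1 CPM against 112, 117 and 110.2 CPM and *Foxo4* 29.9, 26.4 and 29.97 CPM against 22.8, 24.6 and 24.7 CPM, in each case without overlap (log2 differences 0.33 and 0.26, adjusted p = 0.136 and 0.146). *Irs2* read 10.5, 32.4 and 13.2 CPM in treated and 5.03, 9.88 and 25.98 CPM in vehicle livers, and its difference of 0.46 had an interval of -1.04 to 1.95. The adaptor that had moved furthest with the diet was therefore not resolved with corticosterone, since its interval still holds sizeable changes in either direction. The intervals were -0.63 to 0.90 for *Igf1r*, -0.46 to 0.12 for *Pik3r1*, -0.11 to 0.52 for *Akt1* and -0.10 to 0.30 for *Akt2*. Endothelial markers summed to 77.1 to 92.5 CPM in treated and 95.2 to 119.8 CPM in vehicle livers, with 1 of 6 called lower, and their part was not tested.

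**Figure D1:**
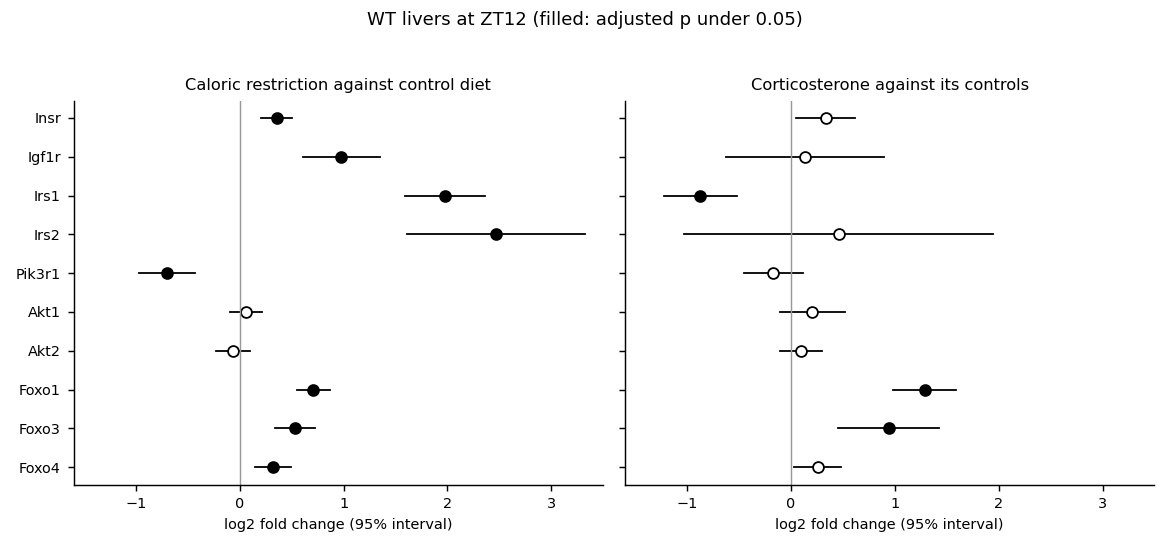
Log2 fold changes of the 10 members at ZT12 in WT liver (horizontal axis, with 95% intervals), caloric restriction against control diet and corticosterone against vehicle, 3 livers per group, with filled points for genes called. Under caloric restriction Irs2 and Irs1 lie furthest to the right and Pik3r1 to the left of 0, and with corticosterone Foxo1 and Foxo3 lie to the right and Irs1 to the left.

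The time series followed the same transcripts around the day. *Irs1*, *Irs2*, *Foxo1* and *Foxo3* had their highest means at ZT12 on caloric restriction, in both genotypes. Levels on the diets come from batches inferred to differ and are set side by side without a test.

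*Foxo1* in WT livers on caloric restriction was highest at ZT12, at 106, 118 and 123 CPM, and lowest at ZT4, at 25.6, 29.8 and 31.1 CPM, a ratio of means of 4.01. The ZT12 livers stood apart from those at every other time point, whose means lay between 28.9 and 46.4 CPM. In GRLKO livers the ratio was 2.11, with 54.9, 63.2 and 70.6 CPM at ZT12 and 28.8, 32.8 and 27.96 CPM at ZT4. On control diet the ratios were 2.09 in WT and 1.35 in GRLKO livers. WT livers on control diet also stood apart at ZT12, at 55.8, 51.4, 49.9 and 50.9 CPM, whereas the GRLKO livers at ZT12 (37.8, 33.3, 29.2 and 38.2 CPM) overlapped those at ZT8.

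*Foxo3* had its highest mean at ZT12 in all 4 groups, at 100.4 ± 6.46 CPM (SD, n = 3) in WT and 70.6 ± 3.94 CPM in GRLKO livers on caloric restriction, and at 76.00 ± 15.1 CPM and 62.2 ± 10.7 CPM (n = 4) on control diet. Its lowest mean was at ZT0 in all 4 groups, and the ratio of highest to lowest was 3.17, 2.26, 2.26 and 1.37 in the same order. On caloric restriction the order ZT12, ZT8, then ZT4 was free of overlap between neighbours in both genotypes, while on control diet ZT12 and ZT8 overlapped. *Foxo4* ran from 15.4 to 37.01 CPM in WT livers on caloric restriction, with ZT16 apart from and below its nearest neighbour, and from 23.2 to 33.4 CPM on control diet, where all neighbours in the order of time points overlapped.

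*Irs2* on caloric restriction reached 40.8, 89.4 and 51.7 CPM in WT and 80.9, 71.6 and 79.7 CPM in GRLKO livers at ZT12 and read 19.9, 13.6 and 17.96 CPM and 12.4, 13.2 and 11.7 CPM at ZT16. The spread between WT livers at ZT12 was wide, and they overlapped those at ZT20, but ZT16 lay apart and lowest in both genotypes. On control diet ZT16 was the lowest time point again, at 8.68, 13.8, 11.8 and 12.5 CPM in WT and 6.33, 3.81 and 4.22 CPM in GRLKO livers, and the highest mean was at ZT8 in WT and at ZT20 in GRLKO livers. *Irs1* ran in a different order: on caloric restriction it was lowest at ZT8, at 21.2, 16.5 and 12.1 CPM in WT livers, apart from its neighbour, and highest 4 h later at ZT12, at 45.4, 39.7 and 39.2 CPM. On control diet ZT12 was the lowest time point of *Irs1* in WT livers, at 21.1, 22.1, 22.3 and 9.68 CPM, with replicate 4 far below the others. In WT livers ZT12 thus had the highest mean of *Irs1* on caloric restriction and the lowest on control diet, where the libraries of the highest and lowest time points overlapped. For GRLKO livers on control diet ZT8 was lowest, at 21.1 CPM.

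**Figure D2:**
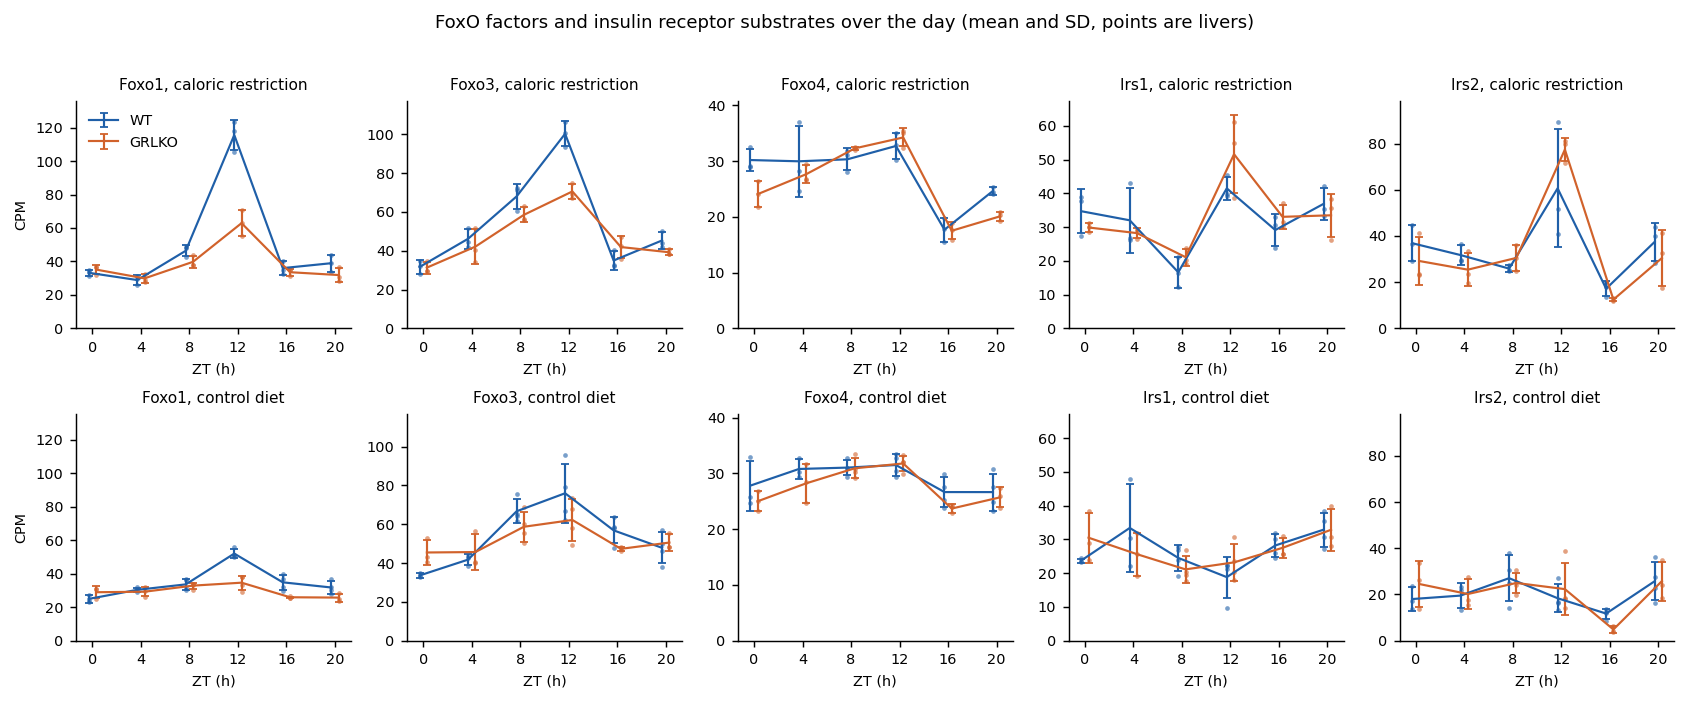
CPM of Foxo1, Foxo3, Foxo4, Irs1 and Irs2 (vertical axis) against zeitgeber time in hours (horizontal axis) for each diet, with points for single livers and lines for group means ± SD, WT and GRLKO in separate colours. On caloric restriction these transcripts peak at ZT12 and are lower at ZT16, and the Foxo1 peak of the WT livers stands above that of the GRLKO livers.

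*Insr* on caloric restriction was highest at ZT12 (212 ± 22.7 CPM in WT, 219 ± 6.28 CPM in GRLKO livers, SD, n = 3) and lowest at ZT16 (153 ± 6.65 and 156 ± 6.19 CPM). On control diet its peak came at ZT8, at 171 ± 10.6 CPM in WT and 191 ± 19.8 CPM in GRLKO livers (n = 4), apart from the next time point in both, and ZT16 was again lowest. *Igf1r* ran from 2.11 to 4.50 CPM in WT livers on caloric restriction and from 1.43 to 3.48 CPM on control diet, with overlap between all neighbouring time points in the order of its means.

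*Pik3r1* ran later than the FoxO genes on caloric restriction, with its highest mean at ZT16 (83.97, 103 and 113 CPM in WT livers) and its lowest at ZT0 (41.8, 47.3 and 36.8 CPM), a ratio of 2.38. On control diet WT livers had 72.5, 109, 92.7 and 107 CPM at ZT12 and 94.5, 84.97, 115 and 82.05 CPM at ZT16, which overlapped, and the low point was ZT4. *Akt1* and *Akt2* ran flatter than *Pik3r1*, with ratios of 1.39 and 1.37 in WT livers on caloric restriction and 1.25 and 1.17 on control diet.

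**Figure D3:**
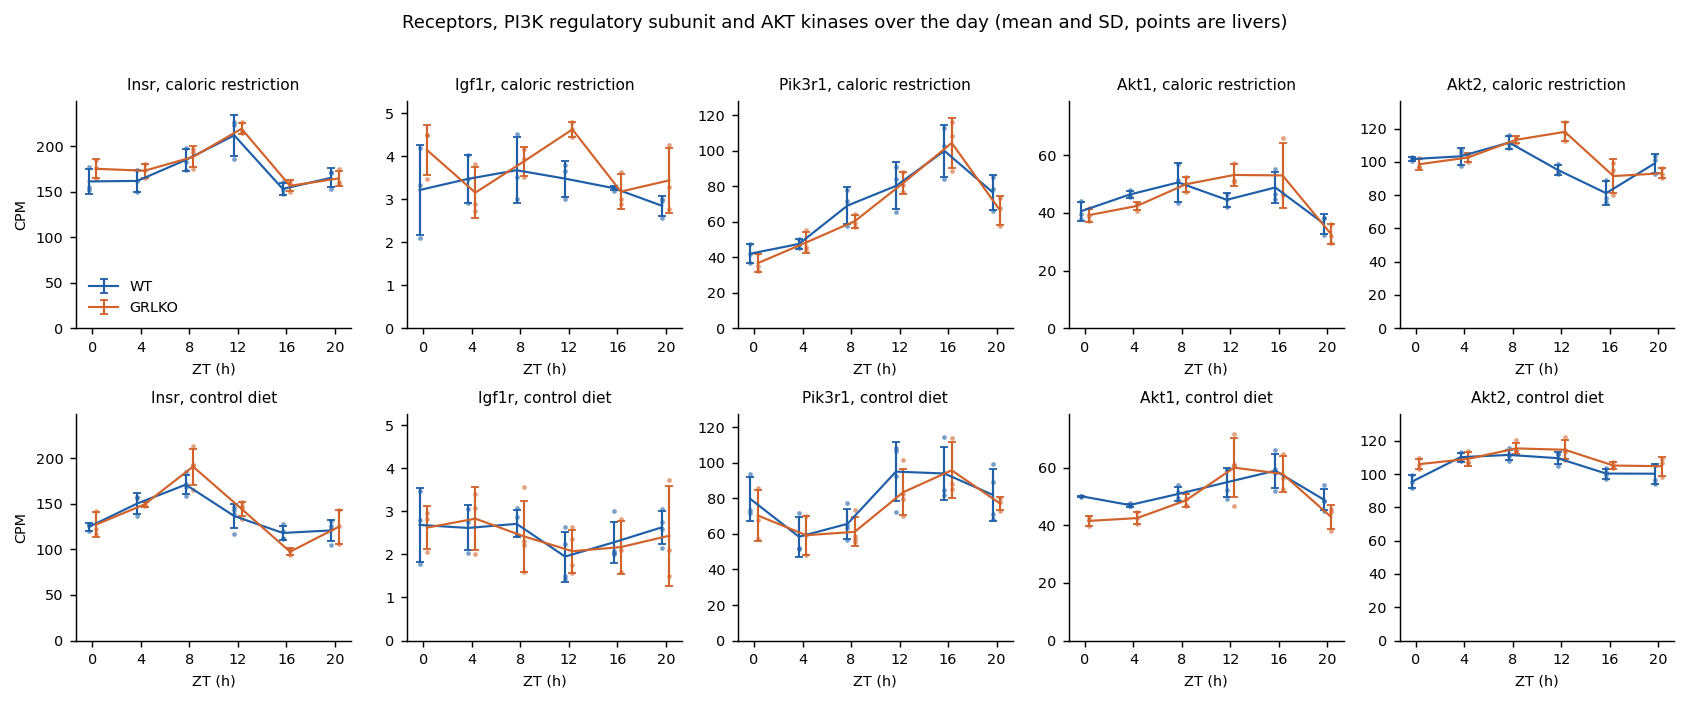
CPM of the other members, Insr, Igf1r, Pik3r1, Akt1 and Akt2 (vertical axis), against zeitgeber time in hours for each diet, drawn as points for single livers and lines for group means ± SD. Insr falls from ZT12 to ZT16 on caloric restriction in both genotypes, and Pik3r1 is highest at ZT16 there.

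Food was offered at ZT12, and ZT16 is 4 h later. From ZT12 to ZT16 on caloric restriction, 6 members fell and none rose in WT livers, where 40.0% of all genes tested were called, and 7 fell and 1 rose in GRLKO livers, where 37.8% were called. In WT livers the log2 changes were -1.80 for *Irs2* (adjusted p = 0.00332), -1.67 for *Foxo1* (0.000161), -1.50 for *Foxo3* (0.000222), -0.87 for *Foxo4* (0.00126), -0.49 for *Irs1* (0.0241) and -0.45 for *Insr* (0.0114). Adaptors, receptor and FoxO factors thus fell in the same interval. Without the ZT12 library that held pancreas transcripts all 6 were still called, at adjusted p-values between 0.00122 and 0.0465. The call of *Irs1* was lost without WT replicate 1 at ZT12 (0.0674) or WT replicate 3 at ZT16 (0.0515) and under the replicate block (0.0604). Kupffer and myeloid markers summed to 32.1 to 51.9 CPM at ZT12 and 69.8 to 99.04 CPM at ZT16 in WT livers with 5 of 6 called higher, and hepatocyte markers to 172586 to 179771 and 138512 to 145531 CPM with 5 of 7 called lower; their part was not tested.

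In GRLKO livers on caloric restriction the log2 changes were -2.62 for *Irs2* (adjusted p = 2.05e-05), -0.95 for *Foxo4* (0.000391), -0.89 for *Foxo1* (0.000881), -0.74 for *Foxo3* (0.00235), -0.47 for *Insr* (0.00284), -0.63 for *Irs1* (0.0222) and -0.35 for *Akt2* (0.0267), and 0.37 for *Pik3r1*, the one that rose (0.0391). The 5 calls of *Insr*, *Irs2*, *Foxo1*, *Foxo3* and *Foxo4* held without any 1 library. In the same comparison 2 of 7 hepatocyte markers and 1 of 6 endothelial markers were called lower, and their part was not tested. *Irs1* was lost without GRLKO replicate 2 (0.06) or 3 (0.075) at ZT12 or replicate 1 (0.0712) or 2 (0.0667) at ZT16. *Akt2* was lost without replicate 2 (0.063) or 3 (0.0724) at ZT12 or replicate 1 at ZT16 (0.0764), and *Pik3r1* without replicate 2 (0.121) or 3 (0.111) at ZT12, replicate 2 (0.11) or 3 (0.139) at ZT16, or under the block (0.074).

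On control diet the same interval called 1 member in WT livers, where 13.4% of all genes tested were called, and 3 in GRLKO livers, where 9.06% were called, all of them lower at ZT16. The log2 change of *Foxo1* in WT livers was -0.57 (adjusted p = 0.00772), and without the ZT16 library that held pancreas transcripts it was -0.65 (0.00673). In GRLKO livers it was -2.20 for *Irs2* (0.0139), -0.55 for *Insr* (0.00583) and -0.41 for *Foxo4* (0.0155). *Irs2* is the member that fell furthest here, as it did on caloric restriction. Under the replicate block none of these 3 was called (adjusted p = 0.0558, 0.0933 and 0.105). Of all 11753 genes tested the block left 16 called, against 1065 without it. *Irs2* was lost without GRLKO replicate 2 (0.056) or 3 (0.0668) at ZT16, and *Foxo4* without replicate 1 (0.0547) or 3 (0.0585) at ZT16. In WT livers on control diet *Irs2* had a difference of -0.64 (0.0925) and *Foxo3* one of -0.41 (0.084), neither called. Endothelial markers summed to 72.8 to 86.9 CPM at ZT12 and 105 to 109 CPM at ZT16 in WT livers on control diet with 4 of 6 called higher, and stellate cell markers to 87.99 to 121 and 145 to 207 CPM with 3 of 6 called higher; their part was not tested.

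GRLKO and WT livers were then compared at each time point, to ask which members depend on the hepatocyte receptor. Over 60 tests per diet, 10 members at 6 time points, 3 were called on caloric restriction, all at ZT12, and 2 on control diet, 1 at ZT12 and 1 at ZT16. At ZT12 on caloric restriction, where 15.3% of all genes tested were called, *Foxo1* and *Foxo3* were lower and *Akt2* was higher in GRLKO livers. At ZT12 on control diet *Foxo1* was lower, where 2.08% of genes were called, and at ZT16 *Irs2* was lower, where 1.98% were called.

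*Foxo1* at ZT12 on caloric restriction ran from 54.9 to 70.6 CPM in GRLKO and from 106 to 123 CPM in WT livers, a log2 fold change of -0.89 ± 0.11 (adjusted p = 0.00331). *Foxo3* read 67.4, 75.00 and 69.5 CPM in GRLKO and 93.6, 106 and 101 CPM in WT livers (-0.52 ± 0.09, adjusted p = 0.00918). The genotypes stood apart for both factors, and both calls held without any 1 library. Without the WT library that held pancreas transcripts the changes were -0.84 for *Foxo1* (adjusted p = 0.0164) and -0.52 for *Foxo3* (0.0371). *Akt2* read 113, 124 and 117 CPM against 93.9, 98.8 and 92.9 CPM (0.30 ± 0.08, adjusted p = 0.0403), and this call was lost whichever of the 6 libraries was left out (adjusted p = 0.0621 to 0.14, the latter without the WT library with pancreas transcripts), under the replicate block (0.126) and without the filter on low counts (0.0524).

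On the adaptor side, *Irs1* read 38.7, 54.9 and 61.1 CPM in GRLKO and 45.4, 39.7 and 39.2 CPM in WT livers at that time, and *Irs2* overlapped widely, as the ZT12 levels above show. Neither was called, with differences of 0.31 (-0.09 to 0.70) and 0.34 (-0.27 to 0.96). The intervals for the remaining members were -0.19 to 0.27 for *Insr*, -0.02 to 0.82 for *Igf1r*, -0.29 to 0.33 for *Pik3r1*, 0.04 to 0.45 for *Akt1* and -0.14 to 0.26 for *Foxo4*. Kupffer and myeloid markers summed to 73.3 to 94.1 CPM in GRLKO and 32.1 to 51.9 CPM in WT livers with 3 of 6 called higher, hepatocyte markers to 121199 to 139149 and 172586 to 179771 CPM with 5 of 7 called lower, and endothelial markers to 199 to 222 and 149 to 180.0 CPM with 1 of 6 called higher. Their part in the genotype differences was not tested.

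On control diet at ZT12, *Foxo1* was lower in GRLKO livers, at the levels given above (log2 fold change -0.59 ± 0.10, adjusted p = 0.0154, n = 4 per genotype). The call was lost without GRLKO replicate 2 (0.0522), and without GRLKO replicate 3, whose adipocyte markers were among the highest, the change was -0.52 (0.0197). Hepatocyte markers summed to 72270 to 92625 CPM in GRLKO and 88216 to 103246 CPM in WT livers there, with 3 of 7 called lower, and their part was not tested. *Foxo3* read 58.1, 49.2, 68.1 and 73.4 CPM in GRLKO and 79.1, 66.8, 62.1 and 95.98 CPM in WT livers on this diet and was not called (adjusted p = 0.53). *Irs2* at ZT16 on control diet was lower in GRLKO livers, as its levels above show (log2 fold change -1.28 ± 0.23, adjusted p = 0.0348). That call held only without WT replicate 1 or GRLKO replicate 1, and was lost without any other of the 7 libraries, WT replicate 2 with its pancreas transcripts included (adjusted p from 0.0618 to 0.11, 0.0897 without that one), as well as under the replicate block (0.196) and with 1 fit over all time points of the diet (0.0602). The sums of hepatocyte markers (75253 to 88896 CPM in GRLKO and 91868 to 100422 CPM in WT livers) and of endothelial markers (79.6 to 103 and 105 to 109 CPM) did not overlap there, with 0 of 7 and 0 of 6 called, and their part was not tested.

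No member was called at the other time points by edgeR's quasi-likelihood test or by DESeq2, apart from *Foxo1* and *Insr* at ZT16 on control diet, which DESeq2 called. On caloric restriction 0.502% of all genes tested were called at ZT0, 0.690% at ZT4, 2.55% at ZT8, 4.54% at ZT16 and 1.47% at ZT20, and on control diet 0.536% at ZT0, 0.195% at ZT4, 1.43% at ZT8 and 0.420% at ZT20. At an unadjusted p under 0.05, 5 further tests passed on caloric restriction and 6 on control diet over the 6 time points. With the called ones these make 8 of 60 on each diet, beside 19.1% and 12.8% of the tests of all genes at that p, so the members' share was no larger than that over all genes on caloric restriction and close to it on control diet. On caloric restriction these were *Foxo4* at ZT0 and ZT20, *Foxo1* at ZT8, *Akt1* at ZT12 and *Irs2* at ZT16, and on control diet *Foxo3* and *Akt1* at ZT0, *Insr*, *Foxo1* and *Foxo3* at ZT16 and *Foxo1* at ZT20. *Irs2* at ZT16 on caloric restriction differed by -0.47 (adjusted p = 0.146), *Foxo1* at ZT16 on control diet by -0.43 (0.103), and *Foxo3* at ZT0 on control diet by 0.44 (0.158). The *Irs2* value of GRLKO livers at ZT16 was thus below that of WT livers on both diets and passed the threshold on control diet, and the difference between the diets was not tested at this time.

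**Figure D4:**
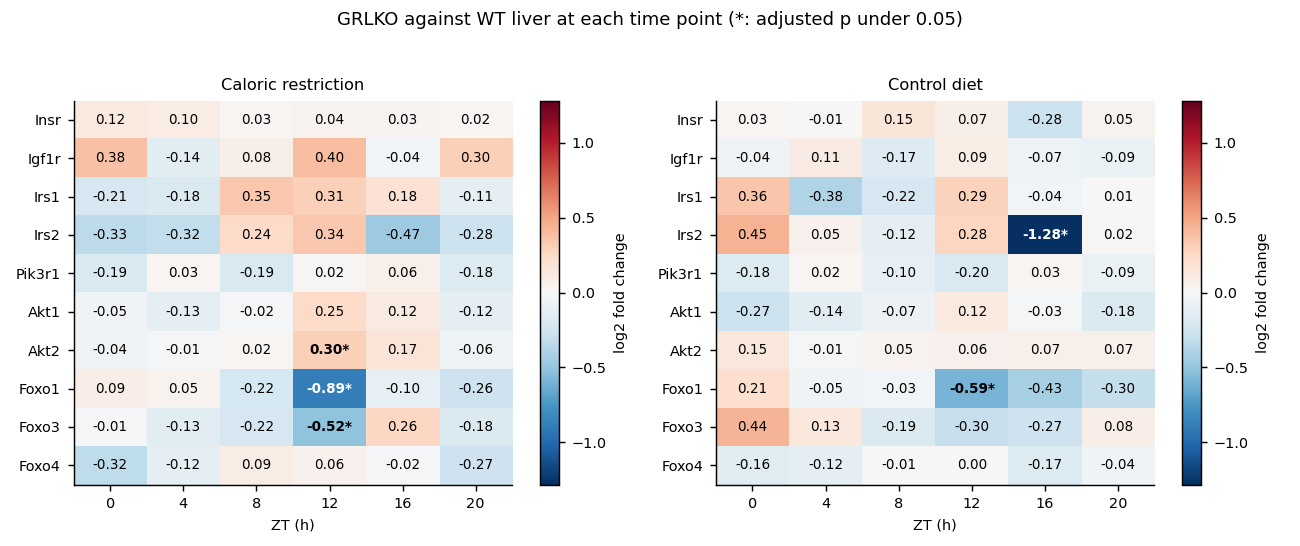
Log2 fold change of GRLKO against WT livers for the 10 members (rows) at each zeitgeber time in hours (columns) on each diet, as colour from blue (lower in GRLKO) to red (higher), with asterisks at an adjusted p under 0.05. The marked cells are Foxo1, Foxo3 and Akt2 at ZT12 on caloric restriction, and Foxo1 at ZT12 and Irs2 at ZT16 on control diet.

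Averaged over the 6 time points, 2 members were called on caloric restriction, where 32.9% of all genes tested were, and 2 on control diet, where 18.6% were. *Foxo1* was lower in GRLKO livers on both diets, with log2 fold changes of -0.23 ± 0.05 on caloric restriction (adjusted p = 0.000292) and -0.20 ± 0.04 on control diet (0.000952). *Foxo3* was lower on caloric restriction (-0.14, adjusted p = 0.0434), and *Akt2* higher on control diet (0.06, adjusted p = 0.0208). The call of *Foxo3* was lost without replicate 2 of every time point (0.451, with a change of -0.06), without replicate 3 (0.136) and under the block (0.0512), and that of *Akt2* without replicate 1 (0.0891), 2 (0.257) or 4 (0.112). In the same tests 5 of 7 hepatocyte markers were called lower in GRLKO livers on each diet, summing to 105979 to 139149 CPM against 113412 to 179771 CPM in WT livers with caloric restriction and to 72270 to 102953 CPM against 78547 to 115165 CPM with control diet. On caloric restriction 6 of 6 endothelial markers were called higher, summing to 168 to 239 CPM in GRLKO and 149 to 213 CPM in WT livers. On control diet the 1 adipocyte marker tested was called higher in GRLKO livers (log2 fold change 6.59). Their part in the mean differences was not tested.

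Whether the genotype effect differed between diets was tested as an interaction. At ZT12, 0 of 10 members were called by edgeR's quasi-likelihood test, where 1.01% of all genes tested were called, with 1 member at an unadjusted p under 0.05, beside 14.2% of genes, and 1 called by DESeq2, and over the mean of the day 0 were called, where 3.01% of genes were, with 0 unadjusted, beside 15.9% of genes, and 0 by DESeq2. For *Foxo1* at ZT12 the genotype effect differed between diets by -0.28 (-0.60 to 0.04), and for *Foxo3* by -0.21 (-0.66 to 0.25), with values of -0.37 to -0.19 and -0.34 to -0.12 when 1 library was left out. The genotype effect on *Foxo1* was therefore not shown to differ between the diets. The member that passed without adjustment, and by DESeq2, was *Akt2*, with a difference of 0.26 (adjusted p = 0.182), or 0.24 without the library with pancreas transcripts.

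The change from ZT12 to ZT16 was also compared between genotypes, a test added after the data had been seen. On caloric restriction 2 members were called, where 3.15% of all genes tested were: *Foxo1* fell less in GRLKO livers, by 0.77 ± 0.16 on the log2 scale (adjusted p = 0.0271), and *Foxo3* by 0.76 ± 0.17 (0.0359). At ZT16 the genotypes were close, at 34.7, 31.00 and 34.9 CPM in GRLKO and 32.6, 40.5 and 34.8 CPM in WT livers for *Foxo1*, and the difference lay in the ZT12 peak. In the same test 2 of 7 hepatocyte markers were called in this direction too, with a median of 0.21. They summed to 172586 to 179771 CPM at ZT12 and 138512 to 145531 CPM at ZT16 in WT livers, and to 121199 to 139149 and 106060 to 132216 CPM in GRLKO livers. Kupffer and myeloid markers, 0 of 6 called, went from 32.1 to 51.9 to 69.8 to 99.04 CPM in WT and from 73.3 to 94.1 to 77.1 to 113 CPM in GRLKO livers. The part of either list was not tested. With 1 library left out the differences lay between 0.68 and 0.87 for *Foxo1* and between 0.66 and 0.89 for *Foxo3*, while the calls came and went. *Foxo1* remained called only without WT replicate 1 or GRLKO replicate 3 at ZT12, or without replicate 2 of either genotype at ZT16, and was lost without any other of the 12 libraries (adjusted p from 0.0537 to 0.0734, 0.0656 without the library with pancreas transcripts). *Foxo3* remained called only without WT replicate 1 at ZT12 or replicate 2 of either genotype at ZT16 (otherwise 0.0512 to 0.0946, 0.0722 without that library), and was lost under the block (0.0723). On control diet edgeR's quasi-likelihood test called 0 members and 0% of all genes tested, with 2 members at an unadjusted p under 0.05, *Insr* and *Irs2*, beside 6.11% of all genes, and 0 called by DESeq2.

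Rhythms with a period of 24 h were tested in each group with JTK_CYCLE, which ranks the libraries against cosine-like orders, on variance-stabilized values. In WT livers 4 members were called rhythmic on caloric restriction, where 21.3% of all genes tested were, and 4 on control diet, where 25.1% were. In GRLKO livers 5 were called on caloric restriction, where 19.6% of genes were, and 4 on control diet, where 21.6% were. *Pik3r1* was called in all 4 groups with its peak at ZT16 (adjusted p = 0.00952 in WT and 0.00448 in GRLKO livers under restriction, 0.0183 and 0.00877 with control diet). *Foxo1* was called in WT livers on both diets with a peak at ZT12 (0.0269 on caloric restriction, 0.000416 on control diet) and in GRLKO livers on control diet at ZT8 (0.0268). Such a peak is the best of 6 phases, 4 h apart, and can differ from the time of the highest mean. On control diet the highest mean was at ZT12 for *Foxo1* in GRLKO and *Pik3r1* in WT livers. *Foxo3* was called with a peak at ZT12 in WT livers on both diets (0.0434 and 2.75e-05) and in GRLKO livers on caloric restriction (0.00177).

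*Insr* was called on control diet in both genotypes at ZT8 (adjusted p = 0.00301 in WT and 0.00323 in GRLKO livers). *Akt1* was called in GRLKO livers on both diets at ZT12 (0.0136 on caloric restriction, 0.00531 on control diet). In WT livers on control diet *Akt1* (0.0329) and *Akt2* (0.0202) passed the p threshold too. They were not called because their amplitudes, 0.0897 and 0.0992, fell short of the minimum of 0.1. *Akt2* was called on caloric restriction at ZT4 in WT (0.0269) and ZT8 in GRLKO livers (0.0107), and *Foxo4* in GRLKO livers on caloric restriction at ZT8 (0.0229). The highest means of *Akt2* were at ZT8 in WT and ZT12 in GRLKO livers there, and that of *Foxo4* in GRLKO livers was at ZT12. *Irs1*, *Irs2* and *Igf1r* were called in no group. On caloric restriction the low point of *Irs2* at ZT16 directly followed its high point at ZT12. Why *Irs2* was not called was not tested. On caloric restriction, where each time point held 3 livers, leaving out replicate 1, 2 or 3 of every time point ended all 4 calls in WT livers (adjusted p from 0.0641 to 0.569), and of the 5 in GRLKO livers only that of *Foxo3* held, and only without replicate 2 (0.047 to 0.0758 for *Foxo3*, 0.0712 to 0.267 for the other 4). Over all genes these fits called 393 to 751 of 18651 in WT livers, against 3980 with all replicates. In GRLKO livers they called 301 to 395 of 18932, against 3706. On control diet *Foxo1* and *Foxo3* were called in WT livers without any 1 number, *Insr* was lost there without replicate 4 (0.0601) and *Pik3r1* without replicate 1, 2 or 3 (up to 0.523). In GRLKO livers on control diet *Insr* was lost without replicate 1 (0.0737), *Foxo1* without replicate 1, 2 or 3 (up to 0.72), *Akt1* without replicate 1 or 2 (up to 0.14) and *Pik3r1* without replicate 1 or 3 (up to 0.215). Over all genes the fits on control diet called 2270 to 3517 of 18874 in WT livers, against 4744 with all replicates. In GRLKO livers they called 1181 to 3464 of 18705, against 4046.

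Differences between 2 rhythms were tested with edgeR's quasi-likelihood F test on the sine and cosine terms. Between genotypes it called 0 members on either diet, beside 0.997% of all genes tested on caloric restriction and 0.374% on control diet. At an unadjusted p under 0.05 stood 1 and 3 members, beside 12.3% and 9.76% of genes. On control diet the fitted amplitude of *Foxo1* was 0.42 (log2) in WT and 0.19 in GRLKO livers (adjusted p = 0.0989), and that of *Foxo3* 0.54 and 0.21 (0.175). Between the diets in WT livers, where 27.3% of all genes tested were called and diet and batch are again confounded, the rhythms of *Akt1* and *Akt2* differed. The fitted peak of *Akt1* lay at 14.5 h on control diet and 9.40 h on caloric restriction (adjusted p = 0.0282), and that of *Akt2* at 8.82 and 4.73 h (0.0293). Each of these calls held in only 1 of the 4 fits that left out a replicate number (adjusted p = 0.0149 to 0.266 for *Akt1* and 0.0282 to 0.14 for *Akt2*).

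The genes downstream of the FoxO factors were read from a list of 29 FoxO targets of liver, 28 of which were tested in each comparison below. With caloric restriction at ZT12, 19 rose and 2 fell, 21 of 28 beside 47.1% of all genes called, with a median log2 change of 0.64 beside 0.00 over all genes tested. Values in parentheses are log2 fold changes of called genes. The 5 that changed most were *Pdk4*, which spares glucose (5.53), *Cdkn1a*, the cell cycle inhibitor p21 (5.12), *Igfbp1*, a secreted binding protein for IGF-1 (5.11), *Lepr*, the leptin receptor (3.04), and *Tat*, an enzyme of tyrosine breakdown (2.96). The 2 that fell were *Gadd45a*, a stress response gene (-1.44), and *Bcl6*, a transcriptional repressor (-1.26), both named after their values were seen. Corticosterone raised 12 and lowered 2, beside 8.11% of all genes called, with a median of 0.77 beside -0.01. *Igfbp1* read 107, 915 and 136 CPM in treated and 1.08, 4.60 and 6.22 CPM in vehicle livers (6.59). *Cdkn1a* (3.07), *Pck1*, the gluconeogenic enzyme PEPCK (2.62), *Ulk1*, the kinase that starts autophagy (1.85), and *Lepr* (1.62) followed, while *Pdk4*, which had risen most with the diet and is named here after its value was seen, fell (-1.37). Several of them, such as *Pck1*, *Tat* and *Igfbp1*, are also known targets of GR. Without 1 library, 19 to 22 targets were called higher and 1 to 3 lower with the diet, and 6 to 11 higher and 0 to 2 lower with corticosterone, the fewest without vehicle replicate 2 (6) or 3 (7).

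In GRLKO livers on caloric restriction at ZT12, 10 of the 28 targets were lower and 2 higher than in WT livers, beside 15.3% of all genes called. Their median was -0.46 beside 0.00. The 7 hepatocyte markers had a median of -0.51 in the same test, with 5 called lower, and their part was not tested. *Cdkn1a* (-3.80), *Igfbp1* (-3.64), *Tat* (-1.17) and *Ppargc1a*, a coactivator of gluconeogenesis (-0.97), were lower, and *Gadd45a* was higher (1.34). On control diet, where 2.08% of all genes were called, 3 were lower, *Tat* (-0.84), *Klf15* (-0.52) and *Ulk1* (-0.37), with a median of -0.04 beside 0.00. The count on control diet was 1 to 4 without 1 library, with medians of -0.18 to -0.02. It fell to 1 without WT replicate 2 or 4 or GRLKO replicate 4. It fell to 2 without WT replicate 1 or 3 or GRLKO replicate 2 or 3. The diet by genotype interaction called 1 of 28, beside 1.01% of all genes. It was *Cdkn1a* (-3.72, or -3.75 without the WT library with pancreas transcripts). On caloric restriction, without the WT library with pancreas transcripts, 8 were lower and 1 higher, with a median of -0.45, and 8 to 9 were lower without any 1 library, with medians of -0.50 to -0.30, the last without WT replicate 2.

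From ZT12 to ZT16 on caloric restriction, where 40.0% of all genes were called in WT and 37.8% in GRLKO livers, 19 targets fell and 2 rose in WT livers, with a median of -1.05 beside 0.01, and 16 fell and 2 rose in GRLKO livers, with a median of -0.72 beside 0.00. In WT livers *Igfbp1* (-5.80), *Fbxo32*, an atrophy-linked ubiquitin ligase (-4.18), *Pck1* (-3.94), *Ppargc1a* (-2.66) and *Txnip* (-2.28) fell furthest. In the same livers *Foxo1*, *Foxo3* and *Foxo4* transcripts fell, as given above. The change differed between genotypes for *Cdkn1a* (2.41) and *Ccng2* (1.14), each relatively higher at ZT16 in GRLKO livers, beside 3.15% of all genes called. With 1 library left out 0 to 2 of them were called. Without the library with pancreas transcripts *Ccng2* was lost (1.102, adjusted p = 0.0587) and *Cdkn1a* was not (2.44, adjusted p = 0.0423). Both were lost without GRLKO replicate 1 or 2 at ZT12 or WT replicate 3 at ZT16. Without the ZT12 library with pancreas transcripts 17 fell and 1 rose in WT livers, with a median of -1.05. On control diet, where 13.4% of all genes were called in WT and 9.06% in GRLKO livers, 7 fell and 2 rose in WT livers, or 8 and 2 without the ZT16 library with pancreas transcripts, and 6 fell in GRLKO livers, or 3 to 6 without 1 library, the fewest without replicate 3 at ZT16.

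**Figure D5:**
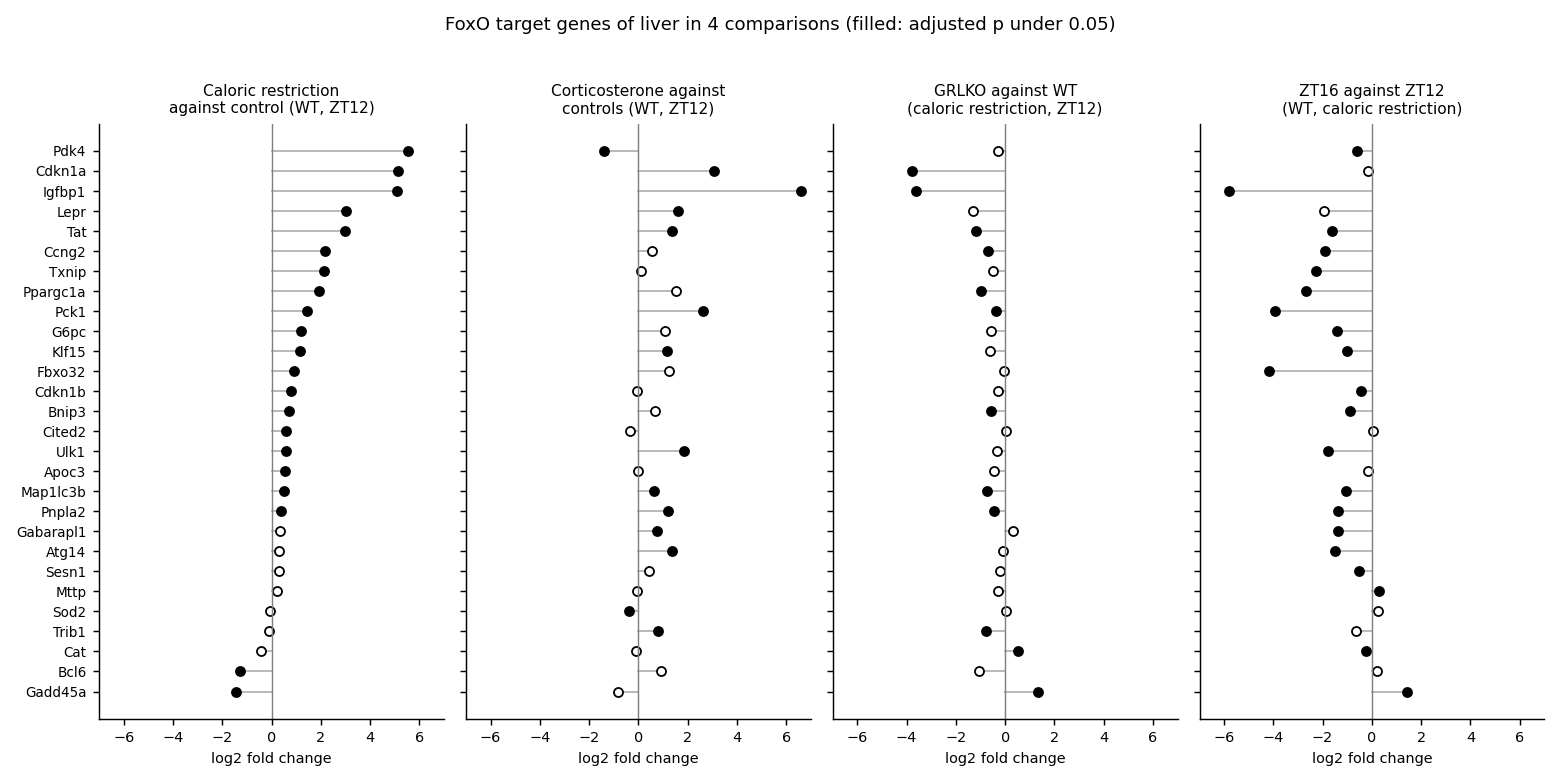
Log2 fold changes (horizontal axis) of the FoxO target genes of liver (rows) in 4 comparisons, with filled points for genes called. Most points lie to the right of 0 with caloric restriction (19 of 28 called higher) and corticosterone (12 of 28), and more called genes lie to the left than to the right of 0 in GRLKO livers on caloric restriction at ZT12 and from ZT12 to ZT16.

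Genes that insulin induces in liver formed a list of 14, mostly of fat synthesis and glucose use. From ZT12 to ZT16 on caloric restriction 8 of 14 rose and none fell in WT livers, beside 40.0% of all genes called, led by *Angptl8*, a fed-state hormone (4.32), *Fasn*, fatty acid synthase (3.56), *Pnpla3* (2.89), *Srebf1*, a main transcription factor of fat synthesis (2.46), and *Elovl6* (2.45). The list's median was 1.29 beside 0.01 over all genes tested. In GRLKO livers 8 rose as well, beside 37.8% of all genes. *Fasn* (-2.18), *Srebf1* (-1.78), *Angptl8* (-1.69), *Acaca* (-0.99) and *Acly* (-0.87) rose less there by the test of the difference, which called 3.15% of all genes. Of these 5, *Angptl8* was lost without the library with pancreas transcripts (-1.72, adjusted p = 0.0682) and in 8 of the other 11 fits with 1 library left out, while the other 4 held in all 12. At ZT12 on caloric restriction 8 were already higher in GRLKO than in WT livers and 1 was lower, beside 15.3% of all genes called. The lower 1 was *Thrsp* (named after its value was seen). *Srebf1* (1.60), *Angptl8* (1.31), *Elovl6* (1.30), *Me1* (1.12) and *Scd1* (1.02) changed most. Without the WT library with pancreas transcripts 6 were higher and none lower at ZT12 in GRLKO livers, with a median of 0.89, and with any 1 library left out 4 to 6 were higher and 0 to 2 lower, with medians of 0.65 to 0.94. There were 5 higher without WT replicate 2 or GRLKO replicate 1 and 4 without GRLKO replicate 3. Without the same library 7 rose from ZT12 to ZT16 in WT livers. With the diet at ZT12, 5 rose and 3 fell, 8 of 14 beside 47.1% of all genes, among them *Egr1* (2.02), *Thrsp* (-1.36), *Fasn* (0.79), *Pklr* (-0.70) and *Acaca* (0.62). Leaving out 1 library, 4 to 6 rose and 0 to 3 fell. None fell without control replicate 3 or restricted replicate 2 or 3, and 1 without control replicate 1 or 2. With corticosterone *Egr1* rose (4.28) and *Angptl8* fell (-3.13), and the other 12 were not called, beside 8.11% of all genes called. Neither was called without vehicle replicate 1, 2 or 3, and *Angptl8* was also lost without treated replicate 1.

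Of the other components of the pathway, 44 were tested in the diet comparison, of which 15 rose and 7 fell, 22 of 44 called beside 47.1% of all genes. *Prkcz*, an atypical protein kinase C (-1.34), and *Grb10*, an inhibitor of the insulin receptor (-0.82), fell, and *Inppl1*, the lipid phosphatase SHIP2 (0.81), *Pik3c2a*, a class II PI3-kinase (0.79), and *Rictor*, a subunit of mTORC2 (0.73), rose. Corticosterone raised 4 of 45, near the 8.11% of all genes called: *Trib3*, a pseudokinase that binds AKT (1.67), *Pik3c2a* (0.99), *Mtor* (0.45) and *Ptprf* (0.37). With 1 library left out 1 to 4 were called, 1 without vehicle replicate 2, 4 without treated replicate 2 and 2 without any other. In GRLKO livers on caloric restriction at ZT12, where 15.3% of all genes were called, 4 of 43 were higher, *Pik3cd* (1.25), *Ptprf*, a receptor phosphatase (0.91), *Pik3r2* (0.65) and *Igf2r* (0.28), and *Pik3r3*, another regulatory subunit of PI3-kinase, was lower (-1.32). These counts fell to 1 higher and 1 lower without the WT library with pancreas transcripts, and to 1 to 2 higher without any 1 library. Kupffer and myeloid markers had a median of 1.05 in the same comparison, with 3 of 6 called higher. Their part in the change of *Pik3cd* was not tested. The diet by genotype interaction at ZT12 called 1 of 44, *Ptprf* (0.82), beside 1.01% of all genes, and 0 to 2 were called higher with 1 library left out. Between ZT12 and ZT16 on caloric restriction 12 of 43 fell and 3 rose in WT livers, 15 in all and below the 40.0% of all genes called, with *Rictor* (-0.99), the adaptor *Gab1* (-0.92), *Pik3r3* (0.89), *Tsc1* (-0.85) and the catalytic subunit gene *Pik3ca* (-0.78) changed most. *Pik3r3* thus rose in the interval in which *Irs1* and *Irs2* fell. Without the library with pancreas transcripts 10 fell and 1 rose, and without any 1 library 8 to 11 fell and 1 to 3 rose. There were 8 and 1 without WT replicate 2 at ZT12, and 1 rose also without replicate 1 or 3 at ZT16. In the same interval 18 of 43 fell and 3 rose in GRLKO livers, 21 in all beside 37.8% of all genes, with medians of -0.28 in GRLKO and -0.09 in WT livers. Without any 1 GRLKO library 13 to 18 fell and 1 to 3 rose, 1 without replicate 1 at either time and 2 without replicate 3 at either time. By the test of the difference between genotypes 2 of 44 were called, beside 3.15% of all genes. These were *Ptprf* (-0.87) and *Igf2r* (-0.50), each relatively lower at ZT16 in GRLKO livers. With 1 library left out 1 to 3 were called, and *Igf2r* was lost without GRLKO replicate 3 at ZT12 (adjusted p = 0.0519).

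Genes whose products modify FoxO proteins or bind them made up a list of 27, 26 of them in the tables. With the diet at ZT12, 10 rose and 2 fell, 12 of 26 and near the 47.1% of all genes called, led by the kinase gene *Sgk1* (1.52), the acetyltransferase genes *Crebbp* (0.92) and *Ep300* (0.57), the deacetylase gene *Sirt1* (0.86) and the exportin gene *Xpo1* (-0.61), the last of which fell. With 1 library left out 6 to 12 rose, with 6 without control replicate 1 or 2 or restricted replicate 2. With corticosterone *Sgk1* (1.81), *Kat2b* (0.52) and *Ep300* (0.45) rose and *Sgk2* fell (-0.74), 4 of 25 beside 8.11% of all genes. Leaving out 1 library, 1 to 3 rose. There was 1 without vehicle replicate 1, 2 or 3 or treated replicate 1, and 2 without treated replicate 3, and *Sgk2* was lost without vehicle or treated replicate 1. In GRLKO livers on caloric restriction at ZT12, *Sirt1* (-0.59), *Crebbp* (-0.57) and *Mdm2* (-0.50) were lower, 3 of 26 beside 15.3% of all genes, and 3 were lower without the WT library with pancreas transcripts too, but 1 without GRLKO replicate 1 or 2 and 2 without GRLKO replicate 3. From ZT12 to ZT16 on that diet 8 of 26 fell and 5 rose in WT livers (7 and 3 without that library, 7 and 3 to 4 without any 1), beside 40.0% of all genes called, among them *Sirt1* (-1.41) and *Xpo1* (1.35), which moved in opposite directions here as they did between the diets at ZT12.

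To set each member beside the genes that ran most like it, Pearson correlations of the 24 group means of the time series (log2 CPM, centred within each diet) were taken over 11422 genes, as a description without a test, since all points share the same libraries. The 3 nearest genes were *Tnfrsf1b* (0.949), *Phactr4* (0.936) and *Slc25a32* (0.924) for *Foxo1*, *Mknk2* (0.939), *Stk35* (0.931) and *Crebl2* (0.928) for *Foxo3* and *Fbxo9* (0.946), *Dtnbp1* (0.933) and *Mxd4* (0.921) for *Foxo4*. Those of *Insr* were *Pnpla8* (0.923), *Arhgef12* (0.902) and *Atf7* (0.891), of *Igf1r* *Sptan1* (0.758), *Atp8a1* (0.738) and *Esam* (0.730), of *Irs1* *Crem* (0.857), *Ubr4* (0.831) and *Dynll2* (0.806) and of *Irs2*, for which 2 are given, *Sppl3* (0.843) and *Sik3* (0.804). Those of *Pik3r1* were *Gm14403* (0.953), *Zfp966* (0.941) and *Atg3* (0.939), of *Akt1* *Eif6* (0.880), *Rabl6* (0.875) and *Trabd* (0.868) and of *Akt2* *Abcc6* (0.926), *H2afv* (0.920) and *Wbp2* (0.919). The adaptors and *Igf1r* had the least close neighbours. Among the members themselves the nearest pairs were *Foxo1* with *Foxo3* (0.834) and *Foxo4* with *Akt2* (0.789).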

How the data were processed

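Bulk RNA-seq of whole mouse liver was analysed in 90 libraries, each from 1 liver. The labels name the TruSeq v2 kit, which does not mark strand, for every library, while the methods also cite the guide of a stranded kit. Per the methods and the submitters' processing notes, read quality was checked with FastQC 0.11.9, transcripts were quantified with Salmon 1.8.0, and tximport 1.18.0 summed them to genes. The authors deposited the result as unnormalized estimated counts in 4 tables. The labels name build mm10, and the transcript annotation is not given in the sources used here. A table of 6 columns of variance-stabilized values was not used.

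Estimated counts were rounded and tested in R 4.3.3 with edgeR 4.0.16 (TMM, filterByExpr at a minimum count of 10, quasi-likelihood F test) on the libraries of each comparison, with Benjamini-Hochberg adjustment over all genes tested and a threshold of 0.05. The tests were checked on simulated data for 7 of the comparisons. A log2 change of 1 was recovered in 18% of genes by the ZT12 interaction and in 51% by the diet comparison. Genotype tests at ZT12 recovered it in 70% (caloric restriction) and 76% (control diet), and the mean on caloric restriction in 100%. Amplitudes of 0.5 were recovered in 9% by JTK_CYCLE and 27% by the test of rhythm differences, and amplitudes of 1 in 87% and 99%. Rhythms used JTK_CYCLE (period 24 h, amplitude above 0.1) on variance-stabilized values (DESeq2 1.42.0). Differences between rhythms used edgeR's quasi-likelihood F test of the sine and cosine terms. Alternatives were DESeq2, no filter on low counts, the replicate number as a block, 1 fit over the diet, and the ZT12 livers of the time series for the diet comparison. For rhythms and their differences limma 3.58.1 was a further alternative (a cosinor fit). Each library (or, for means and rhythms, each replicate number) was also left out in turn. The comparison of genotypes in the change from ZT12 to ZT16 was added after seeing the data. Correlations used log2 CPM with a prior count of 2, among genes with a mean of at least 1 CPM.

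The 10 members and all gene lists were chosen with earlier results of these data known. Named were all members, up to 5 called genes of each list with the largest change per comparison (4 others are disclosed in the text), and the 3 genes most correlated with each member, 1 of which is not reported here. All 102 pairs of libraries within groups differed beyond sampling noise (chi-square divided by its degrees of freedom was 10.4 or more). Replicate numbers did not pair the samples: in 0 of 18 comparisons of groups did every pair of same-numbered samples correlate above 0.1.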

Additional observations from a re-analysis of the deposited data

Results flagged for a closer look

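Within groups of 4 livers, the gap of the highest or lowest library to its nearest neighbour was compared with the group's range (Dixon's test), and 4 of 60 tests passed, where chance flags about 1 in 20. *Irs1* read 9.68 CPM in replicate 4 of the WT livers on control diet at ZT12, against 21.1 to 22.3 CPM in the other 3. *Igf1r* read 2.998 CPM in replicate 3 of the WT livers on control diet at ZT16, against 2.005 to 2.077 CPM. In GRLKO livers on control diet at ZT8, *Foxo1* read 30.1 CPM in replicate 3, against 33.4 to 34.0 CPM, and *Akt2* 120.2 CPM in replicate 4, against 113.6 to 114.1 CPM.

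A test of the difference between groups passed for 4 results. The change from ZT12 to ZT16 on caloric restriction differed between genotypes by 0.77 on the log2 scale for *Foxo1* and by 0.76 for *Foxo3*. The rhythm in WT livers differed between the diets by edgeR's quasi-likelihood F test for *Akt1* (adjusted p = 0.0282) and for *Akt2* (adjusted p = 0.0293).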

How the results depend on the processing

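All 8 diet calls held without any 1 library, by DESeq2, without the filter and under the block. With the time series livers at ZT12, *Akt1* reversed to -0.32 (adjusted p = 0.0222), and diet and batch cannot be told apart there. Under the replicate block, called members numbered 1 instead of 2 for the mean genotype effect on caloric restriction, 2 instead of 3 and 1 instead of 2 for the genotype tests over 6 time points on caloric restriction and control diet, 2 instead of 1 and 0 instead of 3 from ZT12 to ZT16 on control diet in WT and GRLKO livers, and 1 instead of 2 for the genotype difference of that change on caloric restriction. In the corticosterone comparison *Foxo3* was lost. Over all genes the block called 998 instead of 1540 and 16 instead of 1065 from ZT12 to ZT16 on control diet in WT and GRLKO livers. It called 4239 instead of 4297 for that mean effect, 258 instead of 388 for the genotype difference and 534 instead of 935 with corticosterone. DESeq2 called 4 over the 6 time points on control diet, 1 in the ZT12 interaction and 2 from ZT12 to ZT16 in WT livers on control diet, where 1 fit over the diet called 3. Over all genes DESeq2 called 480 of 10031 in that interaction and 1907 of 12083 in that change, where the 1 fit called 2203 of 12834. No filter gave 1 for the mean genotype effect on caloric restriction, where it called 3962 of 19704 genes. It gave 2 for the tests over the time points of that diet. A cosinor fit called 7 rhythmic members in WT livers on caloric restriction and 7 in GRLKO livers on control diet. Over all genes it called 6688 of 18651 and 5936 of 18705 there, against 3980 and 4046 by JTK_CYCLE.

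Leaving out 1 library or replicate number gave 1 to 3 calls with corticosterone, 1 to 3 and 1 to 2 for the mean genotype effect on caloric restriction and control diet, and 1 to 2 over the 6 time points on control diet. Over all genes it called 206 to 1008 with corticosterone, and 2807 to 3168 and 1487 to 2206 for the means. With all libraries these numbers were 935, 4297 and 2389. From ZT12 to ZT16 it gave 5 to 8 in GRLKO livers on caloric restriction, 1 to 2 and 1 to 4 in WT and GRLKO livers on control diet, and 0 to 2 for the genotype difference. Over all genes these changes called 3303 to 3886, 875 to 1384, 379 to 980 and 210 to 357, against 4516, 1540, 1065 and 388 with all libraries. Rhythmic members numbered 0 in WT and 0 to 1 in GRLKO livers on caloric restriction, 0 to 4 in GRLKO livers on control diet, and 0 to 1 differed between diets. Over all genes these rhythm fits called 393 to 751, 301 to 395, 1181 to 3464 and 1298 to 2936, against 3980, 3706, 4046 and 3537 with all replicates. Each such fit has fewer samples. Of the values for single members in these fits, 361 kept their direction and side of the threshold, 102 fell short of it and 7 passed it. Under the other alternatives 344 kept them, 17 fell short, 25 passed and 1 reversed. *Igf1r* rested on as few as 17 counts in a library.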

Other observations

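Over all libraries, adipocyte markers were highest in GRLKO livers on control diet, at 49.0 CPM in replicate 2 at ZT20, 45.2 CPM in replicate 1 at ZT0 and 44.5 CPM in replicate 3 at ZT8, against a median of 0.109 CPM. The last of these is the library in which *Foxo1* stood lowest at ZT8.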
